A study of Mus musculus with 2 samples.

Results

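The intestinal mucus layer is built by goblet cells, which secrete its gel and many of the proteins in it. The 9 genes followed here were grouped as goblet cell and secreted mucus-layer genes: Muc2, Tff3, Fcgbp, Zg16, Agr2, Spink4, Dmbt1, Lypd8 and Spdef. They were taken as every non-control probe that carried 1 of these names in both scanner files, which gave 11 probes for 9 genes, out of 24813 named genes on the array. All 11 probes were well above background on the array of S100A4-negative cells and 4 were on the array of S100A4-positive cells.

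Both fractions came from Peyer's patches, which are lymphoid tissue in the wall of the small intestine, of C57BL/6 mice transgenic for S100A4-GFP. The patches were digested with dispase II, collagenase D and DNase I, and a FACSAria II sorter parted the cells by the reporter. S100A4 is a small calcium-binding protein. The labels give no age or number of mice, no promoter length of the transgene, and no gate other than the reporter. Total RNA of 1 sample per group was measured on 1 array each, so the differences below have no replicate check and no test was possible. Their error is that of the scanner software for single spots.

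Muc2 is a very large secreted mucin whose polymers form the gel. Fcgbp is a large protein bound to that gel, Tff3 is a small trefoil peptide secreted with it, and Zg16 is a lectin that binds bacteria in it. Agr2 is a folding enzyme of the endoplasmic reticulum needed to make Muc2. Spdef is a transcription factor of goblet cell maturation. Dmbt1 is a scavenger receptor that binds bacteria, Lypd8 is a membrane-linked protein of the colonic surface that keeps bacteria away, and Spink4 is a small protein of goblet cell granules that belongs to a family of protease inhibitors.

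The probes below carried the results for the gel-forming mucin, its partners and the transcription factor, and a stretch of each is shown so that each signal can be tied to a stretch of transcript. Each is 30 bases of a 60-base probe, 5′ to 3′, as in the array files. Capitals mark the letters AATAAA, the usual polyadenylation signal, where the stretch holds them.
Muc2, probe at transcript base 7304: ttgctttccgatAATAAActcaggcatagc
Muc2, probe at transcript base 1986: acaaggatgtgcacgcttgcccaagctcac
Fcgbp, probe at transcript base 7667: gtggaaactttgatggggaccaaaccaacg
Fcgbp, probe at transcript base 3493: taagatgctgaagagtgagaatttggaacc
Tff3: ggagtcctgaagAATAAAgacctcacagcc
Zg16: aacactgtcctccgtttcattagtgggcaa
Spdef: tgccctggggatggatAATAAAgacgtaag
These letters stood in 3 of the 11 probes, and in 9.77% of 56605 probes of the array. The GC content of the 11 probes ran from 35% to 55%, with a median of 45%, beside a median of 41.7% for the array.

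Signals are processed intensities, in the scanner's arbitrary units. Differences are log2 values of the positive minus the negative array, with the 75th percentile of each array set to 0. Where a probe was well above background in negative cells alone, its decrease is given as a bound against the higher of its own signal in positive cells and the lowest detected signal there. Directions are therefore relative to the 75th percentile, and the median over all 15245 detected genes was 0.01. Fewer cells of a type and less RNA per cell cannot be told apart in such bulk fractions.

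The reporter's gene followed its labels. S100a4 read 1057 in negative and 119341 in positive cells, a difference of 7.45 ± 0.20 (175-fold higher). The probes for the E1A spike-in RNAs read 3.62-fold brighter on the positive array. On their scale every difference measured on both arrays would be lower by 2.49, while values at a bound shift by other amounts. In negative cells 53.3% of spots, and in positive cells 52.3%, were well above background.

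Of the 9 genes, 8 were at least 2-fold lower in S100A4-positive cells, measured or at their bound, beside 17.0% of all detected genes. The ninth, Spdef, passed that size as well under quantile and cyclic loess normalization, without scaling, on the spike-in scale and in the authors' deposited table (9 of 9), and 7 of 9 passed with each gene's probe of smallest difference. Values from the deposited table lay close to those under quantile normalization (Zg16 −7.44 and −7.43, Spdef −1.29 and −1.28). The table was therefore not a separate check of that setting. At least 32-fold lower were 7 of the 9, beside 0.348% of all detected genes. Over the 9 genes the median difference was −6.38 and the range −8.69 to −0.98. Over the 4 genes measured on both arrays the median was −6.62. None was higher, but the 5 genes at a bound could not be, because such a bound cannot exceed 0. Of all detected genes, 21.4% were at least 2-fold higher.

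**Figure D1:**
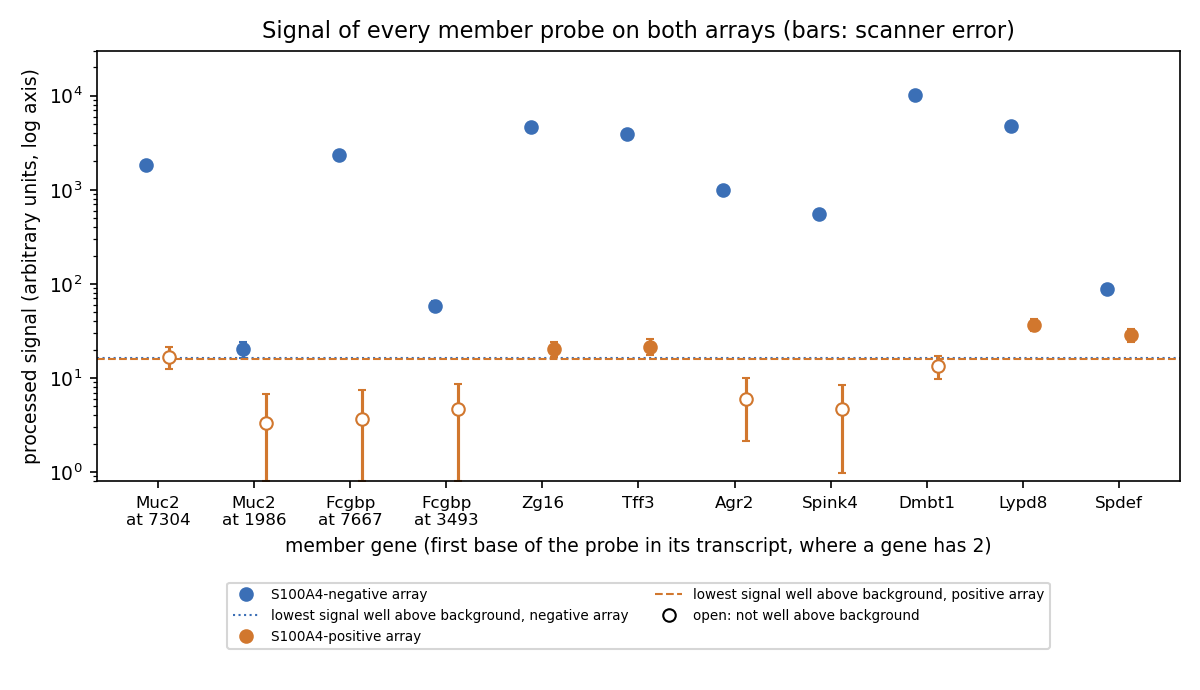
Processed signal (arbitrary units, log axis) of the 11 probes, in blue on the S100A4-negative and in orange on the S100A4-positive array, with the scanner's error as bars. Open circles are not well above background, and dashed and dotted lines give each array's lowest detected signal. Every probe sits higher in blue than in orange, and 4 orange circles are filled.

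Muc2, the gel-forming mucin, was measured at 2 positions. The probe at base 7304 (mm9, chr7:148940536-148940595) read 1829 ± 183 in negative cells and 16.9 ± 4.53 in positive cells. The latter value was not well above background, so the probe was at least 69.8-fold lower. The probe at base 1986 (chr7:148883009-148883068) read 20.3 ± 3.86 and 3.34 ± 3.35. Its signal in positive cells was not well above background and its bound was under 1-fold, so no fold is given. The probes start 57527 bases apart in the genome.

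Fcgbp, the protein bound to the mucin gel, also had 2 probes. The probe at base 7667 (chr7:28905517-28905576) read 2368 ± 237 in negative and 3.70 ± 3.71 in positive cells, at least 96.9-fold lower. The probe at base 3493 of another transcript (chr7:28873024-28873083) read 58.2 ± 6.95 and 4.67 ± 4.0, at least 2.38-fold lower. Both probes were lower in positive cells, although the dimmer one's bound was −0.19 with normexp background correction, and the dimmer one had less room above the floor to show a decrease. The gene took the value of the brighter probe.

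Zg16, the bacteria-binding lectin, read 4599 ± 460 in negative and 20.5 ± 3.92 in positive cells (chr7:134193837-134193896). Its difference was −7.18 ± 0.31, a 145-fold decrease, the lowest of the 12951 genes measured on both arrays. Tff3, the trefoil peptide, read 3896 ± 390 and 21.6 ± 4.10 (chr17:31262279-31262338). Its difference was −6.86 ± 0.31, a 116-fold decrease and the second lowest. Both were just above the positive array's lowest detected signal of 15.7.

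Lypd8, which keeps bacteria from the epithelial surface, read 4735 ± 474 in negative and 36.7 ± 5.17 in positive cells (chr11:58203969-58204028). The decrease was 83.1-fold (−6.38 ± 0.25). Dmbt1, the scavenger receptor, read 10055 ± 1006 and 13.5 ± 3.62 (chr7:138265063-138265122). Its signal in positive cells was not well above background. The decrease was at least 412-fold, which lay beyond the measured decrease of Zg16.

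Agr2, the folding enzyme of mucin-making cells, read 990 ± 99.1 in negative and 6.02 ± 3.89 in positive cells (chr12:36730506-36730565), at least 40.5-fold lower. Spink4, the granule protein, read 558 ± 55.9 and 4.69 ± 3.72 (chr4:40876206-40878330), at least 22.8-fold lower. Its probe's alignment spans 2125 bases of the genome. Neither gene was well above background in the positive fraction.

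Spdef, the maturation factor, was the member with the smallest difference. It read 87.6 ± 9.56 in negative and 28.6 ± 4.55 in positive cells (chr17:27851401-27851460). Its difference was −0.98 ± 0.28 (1.97-fold lower), within its error of the 2-fold size and at place 2190 from the lowest of 12951 genes. The negative signal could have shown a decrease of at most 3.59-fold before the positive array's floor, so a larger one was not detectable at this signal.

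**Figure D2:**
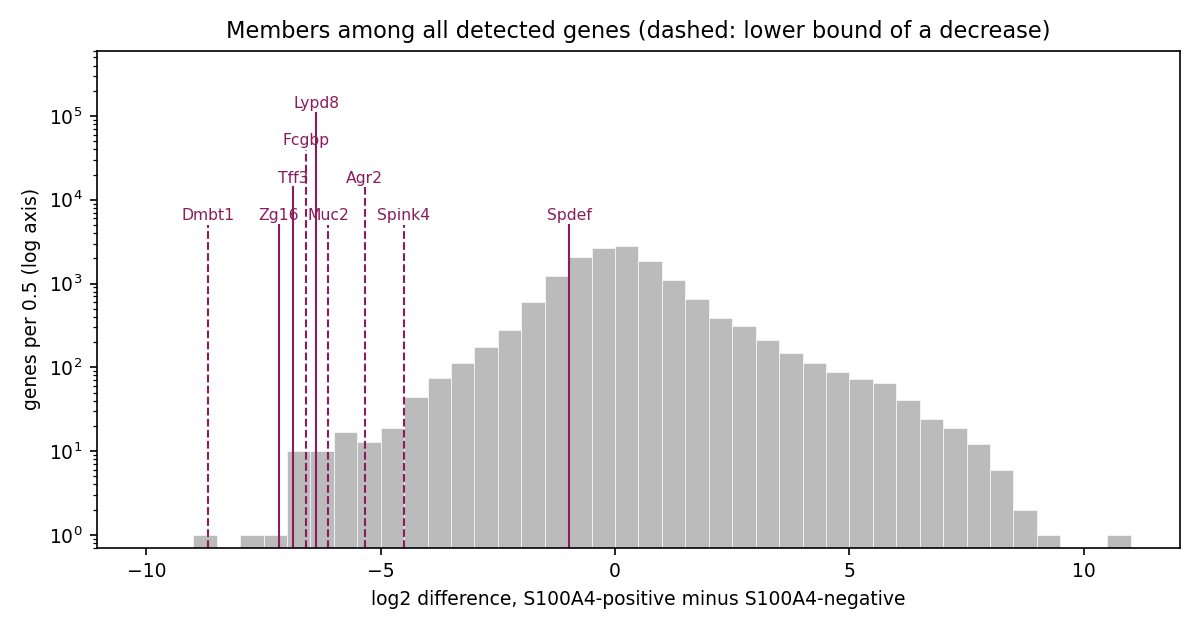
Log2 difference (positive minus negative array) of all 15245 detected genes, as genes per 0.5 on a log axis, with the 9 mucus layer genes as lines. Solid lines are measured differences and dashed lines are bounds. Spdef, at −0.98, lies in the body of the distribution and the other genes lie in its lower tail.

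By probe, 9 of the 11 were at least 2-fold lower, beside 14.8% of the 31583 detected probes. Detected on the negative array alone were 7 of the 11, beside 9.99% of those probes. On the positive array 4 of the 11 raw signals lay within the 95th percentile of the 308 negative control spots there, and 0 did in negative cells. The summed processed signal of the 11 probes was 29196 in negative and 160.1 in positive cells.

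The genes measured on both arrays whose difference lay nearest to the members' measured median were Reg3g (−6.64 ± 0.24), Gzma (−6.59 ± 0.20), Pou2af1 (−6.68 ± 0.21), Reg3b (−6.51 ± 0.22) and Scd1 (−6.48 ± 0.23). Reg3b and Reg3g are similar in sequence, so their probes may share signal. Genes with clone, accession or predicted names were left out of this search, as were names that begin like those of immunoglobulin and T cell receptor genes. This likeness rests on 2 arrays.

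The counts for other genes of mucus production are to be read against the shares of all detected genes, 17.0% lower and 21.4% higher. Counts and medians hold genes measured or at their bound. A gene whose bound is within 2-fold may have changed by more. Of the other mucin family genes, 7 of 10 on the array were detected, 2 at least 2-fold lower and 2 higher, with a median of −0.49. Muc13, a membrane mucin, was lower by 33.5-fold (−5.07 ± 0.24; −3.94 at its other probe), and Muc4, another, by at least 5.71-fold. Muc1 was 3.24-fold higher (1.70 ± 0.26), but 0.90 with normexp. Muc5b, a secreted mucin, was well above background on the positive array alone and at least 2.65-fold higher. That call was lost with normexp (0.71), with quantile normalization (0.998), without scaling (0.77) and on the spike-in scale (0). Muc3 (−0.40) and Muc20 (−0.49) were within 2-fold. They read −1.04 and −1.13 without scaling, and −2.90 and −2.98 on the spike-in scale, so neither stayed within 2-fold there.

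Of 18 detected genes for mucin glycosylation and folding, 3 were at least 2-fold lower, 5 higher and 10 within 2-fold, with a median of −0.21, and the share that was lower was close to that of all genes. Galnt6, which starts sugar chains on mucins, read −1.84 ± 0.20, and Ern2, the stress sensor of mucous cells, was 2.67-fold lower, but −0.36 with normexp. Gcnt1, a branching enzyme, read −1.16 ± 0.20, but −0.57 at its probe of smallest difference. Pdia5, a disulphide isomerase, was 12.3-fold higher (3.62 ± 0.32), but 1.85 with normexp. Its signal of 20.9 in negative cells was near that array's lowest detected signal of 16.1. Galnt3 read 2.16 ± 0.35, but 0.80 with normexp. Of the secretory lineage factors, 4 of 7 detected were lower, 2 higher and 1 within 2-fold, measured or at their bound, with a median of −1.81. Bounds stood for 4 of the 7, and over the 3 measured on both arrays the median was 1.98. The gene within 2-fold was Hes1, whose bound was −0.24 from a signal of 28.9 in negative cells. Cdx1 and Cdx2, the intestinal homeobox factors, were at least 17.0-fold and 7.64-fold lower, while Gfi1 read −2.09 ± 0.20. Foxa1 was 6.46-fold and Klf4 3.94-fold higher. On the spike-in scale Muc1, Galnt3, Klf4 and the epithelial cadherin Cdh1 fell below 0, and Foxa1, at 0.20, was no longer 2-fold higher. Pdia5 read 1.13 there.

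Of 23 detected genes among other goblet cell products, 7 were lower, 4 higher and 12 within 2-fold, measured or at their bound, with a median of −0.36. Bounds of a decrease stood for 9 of the 23, some of them among the 12. Over the 13 genes measured on both arrays the median was 0.35. Clca1, a secreted protease of the mucus, read 1316 on the negative array, was not detected in positive cells, and was at least 53.9-fold lower. Guca2a and Guca2b, the guanylin peptides, read −1.86 ± 0.21 and −2.35 ± 0.23. Ramp1, a receptor accessory protein, was 33.8-fold higher at its brightest probe, with its 3 probes ranging from 2.39 to 5.08. Ccl6, a chemokine, was 16.2-fold higher. Itln1 (−0.38) was within 2-fold.

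**Figure D3:**
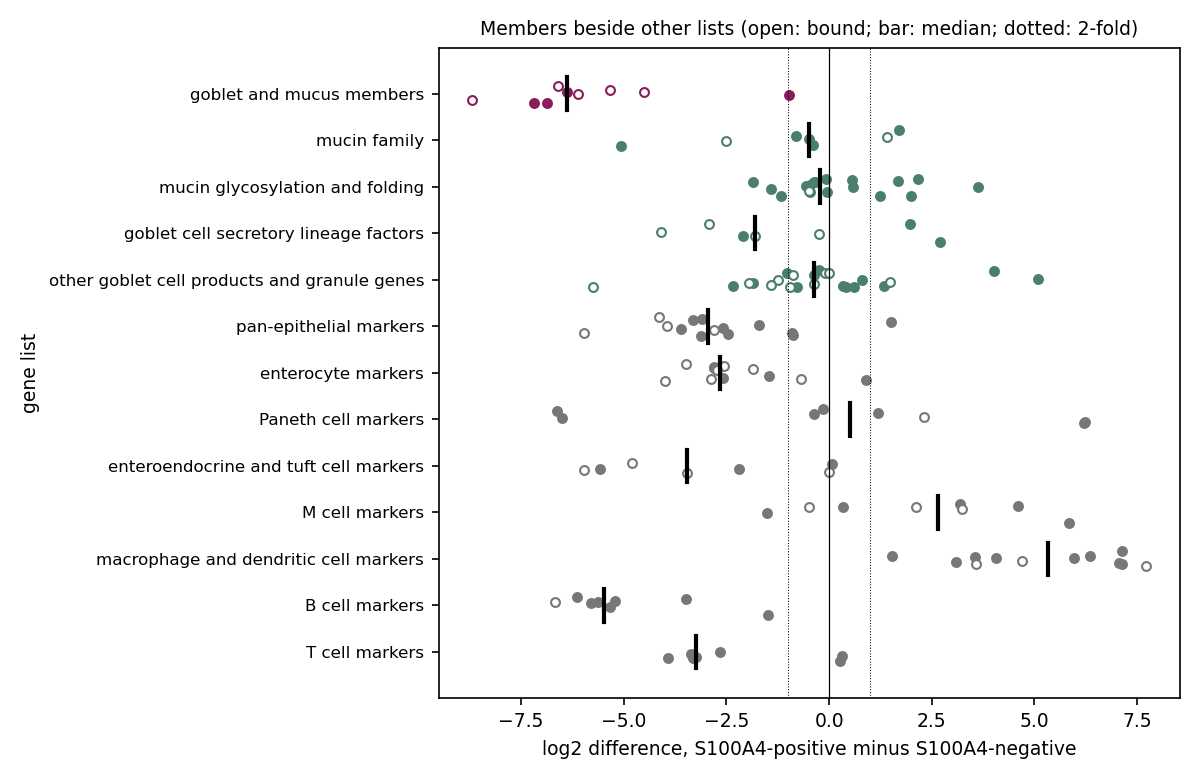
Log2 difference (positive minus negative array) of each detected gene, by list. Filled circles are measured, open circles are bounds, bars are list medians and dotted lines mark 2-fold. The mucus layer genes have a median of −6.38 and the mucin family −0.49.

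Markers of other cells moved with the fractions as well, and their part in the result was not tested. Of 14 pan-epithelial markers, 11 were at least 2-fold lower and 1 higher, with a median of −2.96, and their summed signal went from 17882 to 1694. Krt19, an epithelial keratin, was at least 62.7-fold lower, whereas Epcam read −0.91 ± 0.23 and Cdh1 1.52 ± 0.21. Epcam was within its error of the 2-fold size. It read −0.51 with normexp, −1.12 with quantile normalization and −3.41 on the spike-in scale. Enterocyte markers were lower in 10 of 12 (median −2.66) and enteroendocrine and tuft cell markers in 5 of 7 (median −3.47). Those 5 were Chga, Chgb, Cck, Gip and Sct, which mark enteroendocrine cells. The tuft cell marker Trpm5 was too dim in negative cells to show a decrease, and Dclk1 and Pou2f3 were not detected. Paneth cell markers split, with 2 of 8 lower (Reg3b and Reg3g) and 4 higher. Among the higher ones, Lyz1 read 6.20 ± 0.20, and 3.71 on the spike-in scale, while Nupr1 had 2 probes that ran from −1.06 to 6.23. B cell markers were lower in 8 of 8 (median −5.47), their summed signal going from 225420 to 15556, and T cell markers in 5 of 7 (median −3.23). Macrophage and dendritic cell markers were higher in 12 of 12 (median 5.33), summing to 4820 in negative and 76455 in positive cells. M cell markers were higher in 5 of 8, with the largest rise for Ccl9 (5.84 ± 0.23), while Spib was lower (−1.50 ± 0.20). Which cells gave these signals was not tested.

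The promoters of 5 of the 9 genes, 6 promoters in all, were found in RefSeq's sequences for GRCm38.p6. Those of Muc2 and Fcgbp, both lower in positive cells at their brighter probes, are shown for the 120 bases before the start, 5′ to 3′ on the gene's strand. Capitals mark the E-box letters CANNTG, where N is any base.
Muc2, chr7:141690220-141690339, plus strand: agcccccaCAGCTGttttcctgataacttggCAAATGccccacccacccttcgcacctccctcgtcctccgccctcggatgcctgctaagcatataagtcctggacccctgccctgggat
Fcgbp, chr7:28071116-28071235, plus strand: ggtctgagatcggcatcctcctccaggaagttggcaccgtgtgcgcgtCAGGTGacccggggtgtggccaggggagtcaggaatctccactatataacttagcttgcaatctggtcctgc
Over the 250 bases before the start, on both strands, CANNTG stood in 5 of the 6 promoters and in 66.2% of 32851 promoters. It began 112 and 89 bases before the start of Muc2. The KLF letters CACCC stood in 3 of 6 and in 52.0% of all promoters. The letters CCGGAT, an ETS core of the SPDEF type, stood in 0 of 6 and in 4.94% of all promoters, and TGTTTAC, of forkhead factors, in 0 of 6 and 3.17%. TTTATNG, of caudal factors, stood in 1 of 6 and 9.81%, and TATAAA in 1 of 6 and 12.4%. These are matches of letters in these windows and no more.

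Under the other processing settings, the 11 probes' differences or bounds ranged from −11.18 to 0 and none turned positive. A bound cannot exceed 0, so the 7 probes detected on the negative array alone could not turn positive where bounds were used. Normexp background correction gave the smallest decreases, such as −5.45 for Zg16 and −5.08 for Tff3, and moved Spdef to −0.29. Scaling on the spike-ins gave the largest, −9.67 for Zg16, −9.36 for Tff3 and −3.47 for Spdef.

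**Figure D4:**
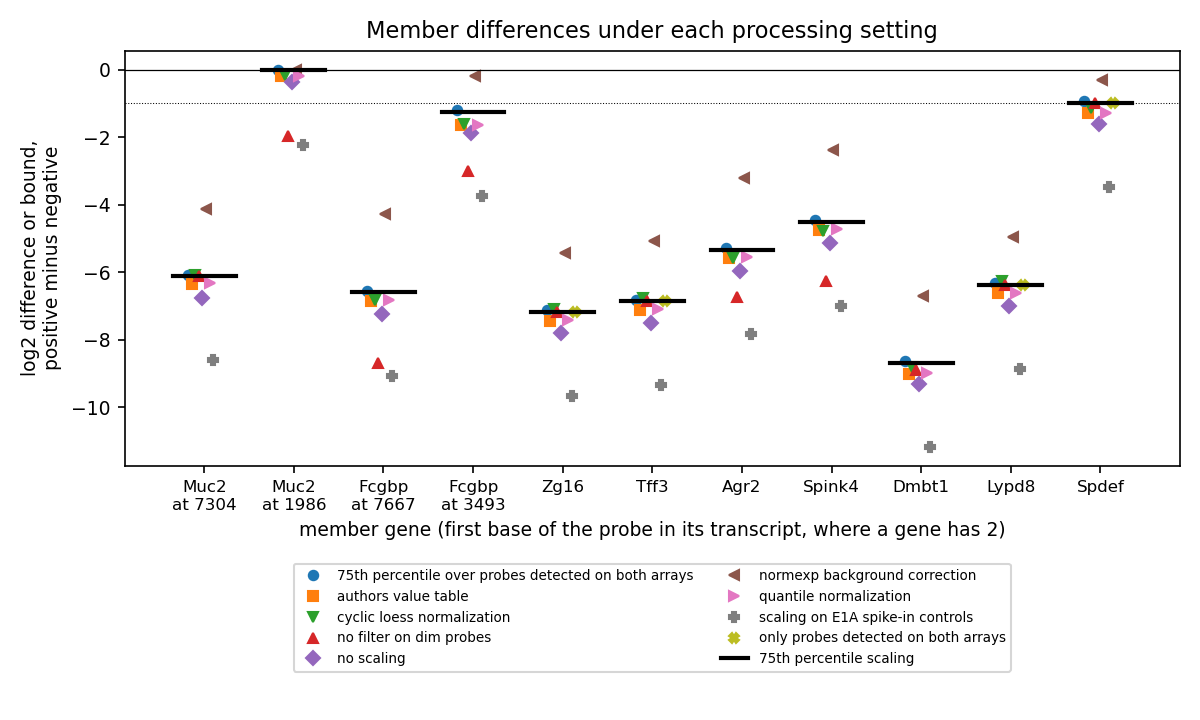
Log2 difference or bound (positive minus negative array) of each probe under each processing setting, as symbols, with the 75th percentile scaling as black bars. The dotted line marks 2-fold. The symbols of Zg16 lie between −9.67 and −5.45, and the symbols of Spdef between −3.47 and −0.29.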

How the data were processed

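Total RNA was amplified, labelled with Cy3 (per the labels' protocols) and read on Agilent design 74809 (per the file headers), with 1 array for each fraction. The authors' deposited scanner tables give a background-subtracted processed signal intensity per spot with an error, made with Agilent Feature Extraction 10.7.1.1 per the file headers (9.5.1.1 per the submitters' processing notes), and other values, the deposited flags for detection and outliers, were taken as given. Intensities were not normalized between arrays. Positions are on mm9 (NCBI build 37), per the file headers.

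Control spots were left out, and log2 signals were centred on each array's 75th percentile over all 59305 non-control spots (445.9 and 287.3). Outlier spots (138 for negative and 80 for positive cells) counted in that percentile and were left out of the probe values. Of 56602 probes, 32993 were named by accession, 10224 by symbol and 520 by synonym through RefSeq's GRCm38 table, and 12865 were unnamed. A gene took its brightest detected probe. With 1 array per group no test was possible, and the number of arrays limits the precision. Alternatives were normexp (offset 50), quantile and cyclic loess normalization, other scalings, filters and probe choices, and the authors' deposited value table, which is on a linear scale, with its processing not stated in those sources. Members and lists were chosen with earlier results of these data known. Named genes were the members, up to 4 genes each way and 3 within 2-fold from each list by size, and S100a4. The 5 genes nearest the members' measured median were named too, with some kinds of names left out as stated above. Steps were tested on simulated data. Python 3.11.15, numpy 2.4.6, pandas 2.3.3, R 4.3.3 and limma 3.58.1 were used.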

Additional observations from a re-analysis of the deposited data

How the results depend on the processing

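No paired analysis was possible because each group has 1 array. None of the 92 alternative values of the members' probes reversed, but a value at a bound cannot exceed 0 and so could not reverse. Member genes at least 2-fold lower numbered 7 to 9 under the alternatives that kept all 9 genes. With only probes detected on both arrays, 3 member genes and 3 member probes were at least 2-fold lower, as were 1 mucin family gene, 1 lineage factor and 3 other goblet cell products, because fewer genes enter. The members' median was −4.28 with normexp, −5.34 with the median probe or the probe of smallest difference, −6.61 with quantile normalization, −6.62 with the authors' deposited table and with probes detected on both arrays, −6.73 with no filter, −7.01 with no scaling and −8.87 on the spike-in scale. Lower mucin family genes numbered 5 with no scaling and 5 on the spike-in scale. Lower glycosylation and folding genes numbered 5 with no filter, 8 with no scaling and 14 on the spike-in scale. Lower other goblet cell products numbered 3 with normexp, 11 with no filter, 11 with no scaling and 20 on the spike-in scale. Of all genes at least 2-fold changed, 55.6% were higher, beside 26.9% with no scaling and 4.51% on the spike-in scale. On the spike-in scale, Cdh1 (−0.97), Galnt3 (−0.34), Galnt5 (−0.80), Klf4 (−0.51), Muc1 (−0.80), St6galnac6 (−0.50) and Tspan13 (−1.15), all at least 2-fold higher before, turned lower. Anpep and Rep15, within 2-fold before (0.90 and 0.42), read −1.60 and −2.07 there. Nupr1, counted among the higher Paneth cell markers at 6.23, read −1.06 with its probe of smallest difference. The causes of these shifts, other than the scaling itself or fewer genes, were not tested.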

Other observations

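A further probe that the array files describe as mucin 2 but name by a transcript identifier, and so outside the rule for the members, was looked at after its values were seen. It read 24.4 ± 4.22 in negative and 3.53 ± 3.54 in positive cells, where it was not well above background. Its bound was under 1-fold, as for the Muc2 probe at base 1986, so no fold is given.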
